A study of Solanum lycopersicum with 15 samples.

Results

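The 88 genes described here had lower transcript levels in both *slexo1* and *slscz* hairy roots of tomato (*Solanum lycopersicum* cv M82) than in wild-type hairy roots, out of 34688 genes counted. A gene belonged to the set when each of its 12 mutant libraries lay below all 3 wild-type libraries, and when the mean of the 6 *slexo1* and the mean of the 6 *slscz* libraries each lay at least 0.5 below the wild-type mean. Values were CPM, a gene's count divided by the total of its library and put on a common scale, and were compared as log2(CPM + 1). The members were therefore chosen on the contrasts of both mutants with wild type, and everything given below for those contrasts is a description without a test. The direct comparison of *slscz* with *slexo1* and the comparisons between lines of one genotype were not contrasts of the rule, and those were tested. The rule did use the same mutant values, since a gene with any mutant library as high as wild type was left out. Shares of members called in those tests, or with separate ranges, were therefore shaped by the choice. They are set beside all genes only as a description.

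There were 5 groups of 3 libraries: *slexo1-hr6*, *slexo1-hr7*, *slscz-hr5*, *slscz-hr12* and wild type. The mutant lines were hairy roots edited by CRISPR/Cas9 in *SlEXO1* (Solyc09g011120, chromosome 9) or *SlSCZ* (Solyc04g078770, chromosome 4), and the wild type was M82 transformed with *Rhizobium rhizogenes* without a vector. All groups were thus transformed roots on a medium with 3% sucrose, and each library pooled 6 to 7 root tips, cut 3 cm from the end. The vector and the edited gene cannot be told apart as sources of a difference from wild type, since every edited line carried a vector. Each line is a single root line, so its 3 libraries measure the spread within that line, and each genotype rests on 2 lines.

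*SlSCZ* encodes a heat-shock-family transcription factor related to SCHIZORIZA of *Arabidopsis thaliana*, where it takes part in setting the fates of root ground tissue cells, and *SlEXO1* encodes a C2H2 zinc finger transcription factor. In tomato roots the exodermis, the outermost layer of the cortex below the epidermis, deposits lignin as a polar cap and later suberin, which form barriers to water and solutes. Genes lowered in both mutants are those whose transcripts were less abundant when either of these regulators was edited. The identifiers of the count table matched none of the entries of the gene name table used here (0 of 34688), so members are given by identifier, and no function is assigned to them.

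The guide sequences listed for both lines of each genotype are shown because they define the mutants. Each is 20 bases long and printed as the study lists it, with no base marked.
SlEXO1 guide 1: gcttttgctgaagatgcagc
SlEXO1 guide 2: gagcacttggagggtgtata
SlEXO1 guide 3: tgcctctggggttccaatta
SlSCZ guide 1: tattgtttcttggggtgaag
SlSCZ guide 2: cattcatatcatacgggttc
SlSCZ guide 3: acccgagtaattataacccg

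Libraries held between 2726538 and 8942833 counts (median 4800487), from QuantSeq, which reads the 3′ ends of transcripts. The targeted genes themselves gave few counts (1 to 27 per library for *SlEXO1* and 15 to 53 for *SlSCZ*). Neither transcript was called lower in its own mutant (log2 fold change 0.57 for *SlEXO1* in *slexo1* and 0.18 for *SlSCZ* in *slscz*, adjusted p = 0.383 and 0.735, limma). None of the 26 marker genes found in the table (5 endodermal, 2 cortical and 19 exodermis-enriched) belonged to the set, and 0 of them were at 0 in every library. The 2 cortical genes were the edited genes *SlEXO1* and *SlSCZ* themselves. Cortical identity was therefore not checked with genes separate from the edited ones. The summed level of the 5 endodermal markers was 45.5 to 63.2 CPM in *slexo1*, 47.9 to 66.1 in *slscz* and 60.8 to 67.4 in wild type. Of these 5, SlCASP1 was called lower in *slexo1* (-0.98, adjusted p = 0.00324, limma) and SlMYB36 in *slscz* (-0.71, adjusted p = 0.0123, limma). The 19 exodermis-enriched regulators summed to 294 to 333 CPM in *slexo1*, 189 to 253 in *slscz* and 252 to 286 in wild type. The largest part of these sums came from SlNAC041, at 123 to 157 CPM in *slexo1*, 54.3 to 77.5 in *slscz* and 88.9 to 101 in wild type. The sums therefore do not describe the regulators as a group. Of the 15 that were tested, 3 were called lower and 2 higher in *slexo1*, and 5 lower and 2 higher in *slscz*. Over all tested genes, 4.95% were called lower in *slexo1* and 8.37% in *slscz*, and the shares called higher are not given here. In pooled root tips, fewer cells of a type and less transcript per cell cannot be told apart, and the part of cell composition in the values below was not tested.

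Together the 88 genes took a smaller part of the transcriptome in the mutants. They received 1.48% ± 0.12 of all counts in *slexo1* and 1.43% ± 0.20 in *slscz* (SD, n = 6 each), against 3.16% ± 0.08 in wild type (SD, n = 3). A single member, Solyc09g010800, accounted for 0.849%, 0.829% and 1.97% of the counts in *slexo1*, *slscz* and wild type. Without it, the other members summed to 6090 to 6579 CPM in *slexo1* and 4917 to 6488 CPM in *slscz*, against 11072 to 13033 CPM in wild type. The choice of members fixed the direction of these sums.

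The wild-type levels of members spanned from 0.459 to 19703 CPM, with a median of 22.3. There were 18 members at 100 CPM or more (5 of them at 1000 CPM or more), 41 between 10 and 100 CPM and 29 under 10 CPM. Of the 88 members, 80 passed the filter on low counts, with a median wild-type level of 26.5 CPM, against 13.9 CPM over all 16189 genes that passed. The other 8 (Solyc02g084031, Solyc06g074200, Solyc07g061730, Solyc09g160390, Solyc11g161930, Solyc11g063540, Solyc12g062457 and Solyc12g094380) averaged 0.459 to 3.43 CPM in wild type and entered no test.

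**Figure D1:**
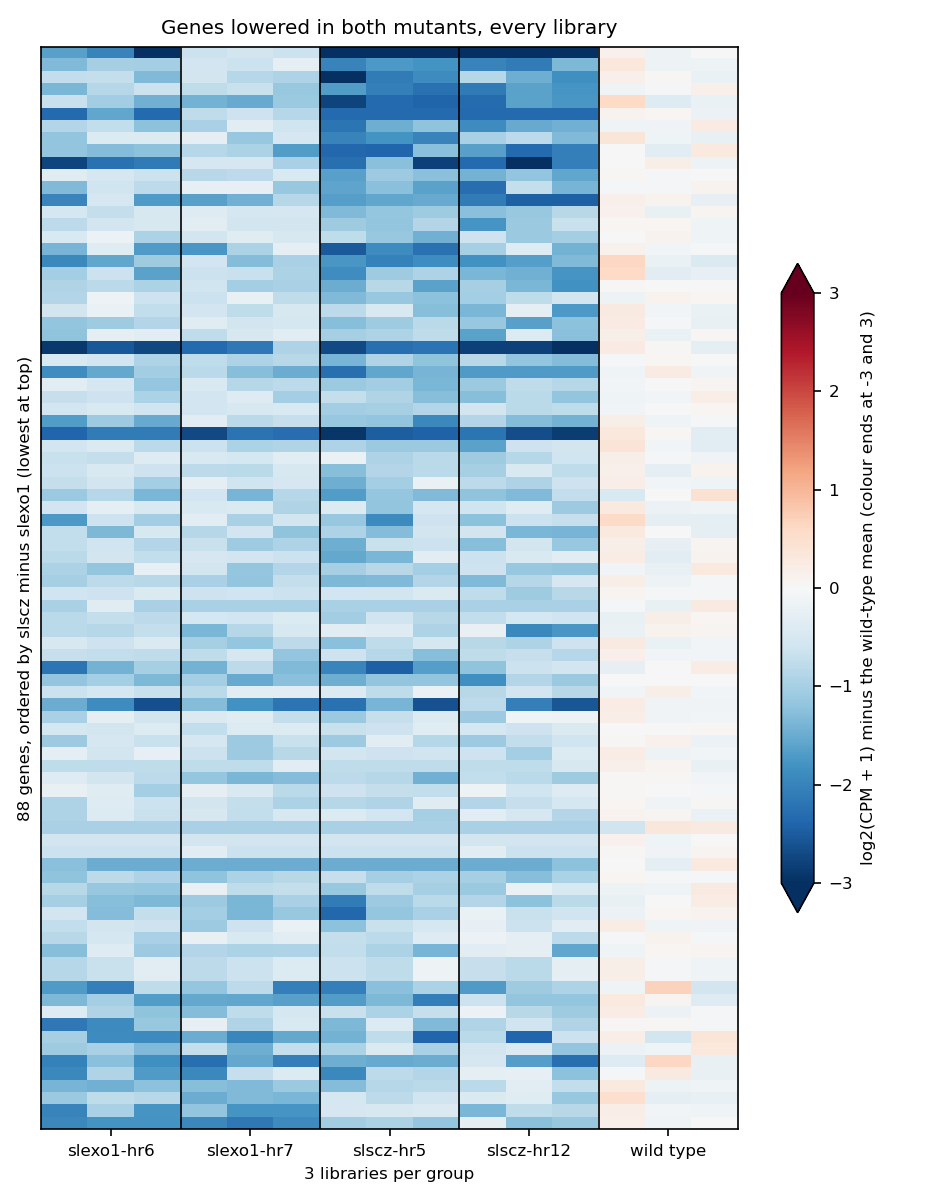
Each row is 1 of the 88 genes and each column 1 library, with the groups *slexo1-hr6*, *slexo1-hr7*, *slscz-hr5*, *slscz-hr12* and wild type from left to right. Colour gives log2(CPM + 1) minus the wild-type mean of that gene, blue where lower, and ends at -3 and 3. All mutant columns are blue, as the choice of genes requires, and the depth of blue differs between rows.

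The fall was of moderate size in most members. The median difference from wild type in log2(CPM + 1) was -0.84 in *slexo1* (from -2.30 to -0.50) and -0.99 in *slscz* (from -4.13 to -0.52). The level was at least 1 log2 unit below wild type in 30 members in *slexo1*, in 42 in *slscz* and in 22 in both. On this scale the fall was the larger one in *slscz* for 63 members and in *slexo1* for 23. The scale itself favoured larger falls in *slscz*, since the median difference from wild type over all tested genes was 0.13 in *slexo1* and 0.05 in *slscz*. In the fitted direct comparison given below, 47 of the 80 tested members were lower in *slscz* and 33 higher. The wild-type and mutant ranges were close in many members: the gap between the lowest wild-type and the highest mutant library had a median of 0.19 log2 units, ran from 0.0013 to 1.76, and reached 0.5 in 11 members.

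The scale on which levels were compared moved the number of members. Over all tested genes the median CPM difference from wild type was 0.13 in *slexo1* and 0.05 in *slscz*, which TMM scaling reduced to 0.03 and 0.02. By CPM 88 genes were lowered and 225 raised in both mutants under the same rule turned round, whereas by TMM 129 were lowered and 152 raised. All 88 members remained lowered under TMM, with medians of -0.93 in *slexo1* and -1.02 in *slscz*. On the list as described, the fitted contrast with wild type was called in 77 of the 80 tested members in *slexo1* (4.95% of all tested genes were called lower) and in 77 of 80 in *slscz* (8.37%). Called means here that the adjusted p did not exceed 0.05 and that the level changed 1.3-fold or more. Nothing is read from these counts, since the rule used the same contrast.

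The rule placed each of the 4 lines below wild type, and the size of the fall varied between them. For *slexo1-hr6* the median difference from wild type was -0.85 and for *slexo1-hr7* it was -0.77. The *slscz* lines had medians of -1.05 (*slscz-hr5*) and -0.95 (*slscz-hr12*). In *slexo1-hr6* 83 of the 88 members were at least 0.5 log2 units below wild type. The same held for 79 members in the *slexo1-hr7* line, for 86 in the *slscz-hr5* line and for 82 in the *slscz-hr12* line.

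**Figure D2:**
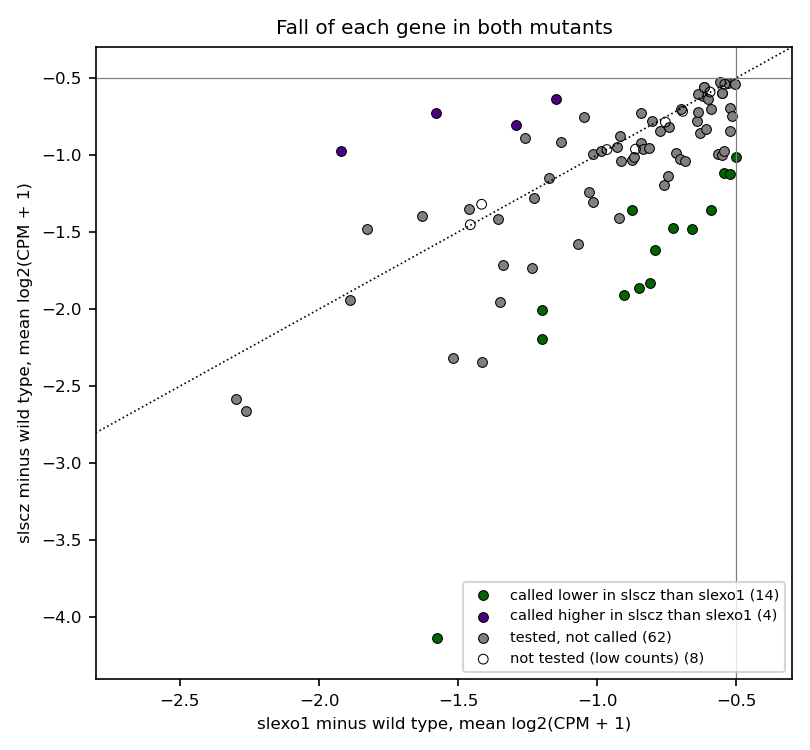
The plot sets the mean difference from wild type in log2(CPM + 1) in *slexo1* (horizontal axis) against that in *slscz* (vertical axis) for each of the 88 genes. Grey lines mark the threshold of -0.5, the dotted line marks equal falls, and 63 genes fell further in *slscz* on this CPM scale. Filled colours show the 14 genes called lower and the 4 called higher in *slscz* than in *slexo1*.

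The deepest joint falls, ranked by the smaller of the 2 mean differences, were in 10 genes, most of them of low abundance. Solyc01g010365 had 1.01 to 2.06 (median 1.75) CPM in *slexo1* and 0.734 to 1.87 (median 1.22) in *slscz*, against 15.2, 12.4 and 9.35 CPM in the wild-type libraries. This was the widest separation in the set, and its mutant means were 13.7% and 9.89% of the wild-type mean in *slexo1* and *slscz*. Solyc11g011980 had 0.191 to 3.69 (median 0.637) CPM in *slexo1* and 0 to 0.897 (median 0.319) in *slscz*, against 9.56, 8.16 and 6.23 CPM in wild type. A single *slexo1-hr7* library held the high value of 3.69 CPM, and all other mutant libraries were below 1 CPM.

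Solyc01g066910 was the most abundant of these 10 genes. It had 15.1 to 39.5 (median 26.7) CPM in *slexo1* and 15.4 to 57.6 (median 21.8) in *slscz*, against 116, 92.7 and 91.9 CPM in wild type, so that both mutants held similar means of 27.4 and 28.3 CPM. Solyc09g090990 had 3.74 to 49.0 (median 34.4) CPM in *slexo1* and 1.33 to 4.77 (median 4.02) in *slscz*, against 79.3, 65.6 and 73.5 CPM in wild type. Its *slexo1* libraries split by line, which is described with the line comparison. Solyc08g160710 had 1.53 to 11.0 (median 5.31) CPM in *slexo1* and 0.815 to 6.13 (median 2.48) in *slscz*, against 15.8, 18.1 and 14.2 CPM in wild type, with a similar split.

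The remaining 5 of the 10 had wild-type means of 4.47 CPM or less, where 1 count is a large step. Solyc03g123510 had 0 to 1.03 (median 0.266) CPM in *slexo1* and 0 to 2.40 (median 0.699) in *slscz*, against 2.69, 6.37 and 3.12 CPM in wild type. Solyc11g005830 had 0.336 to 1.61 (median 0.593) CPM in *slexo1* and 0 to 2.32 (median 1.44) in *slscz*, against 4.93, 2.55 and 5.64 CPM in wild type. Solyc08g008310 had 0.191 to 2.16 (median 1.10) CPM in *slexo1* and 0 to 2.71 (median 1.03) in *slscz*, against 3.58, 4.47 and 5.34 CPM in wild type. In all 3 the lowest wild-type library lay above the highest mutant library by only 0.10 to 0.31 log2 units. Solyc02g084031 had 0 or 1 counts in every mutant library against 6, 12 and 11 counts in wild type. Solyc10g012005 had 0 counts in all 6 *slscz* libraries and 0 to 13.7 counts in *slexo1*, against 14.9, 38.6 and 15.8 counts in wild type. Fold changes from wild type are not given for the last pair of genes. Solyc02g084031 entered no test, and Solyc10g012005 had no counts in *slscz*. Fitted values given below for other genes with counts near 0 are uncertain for the same reason.

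**Figure D3:**
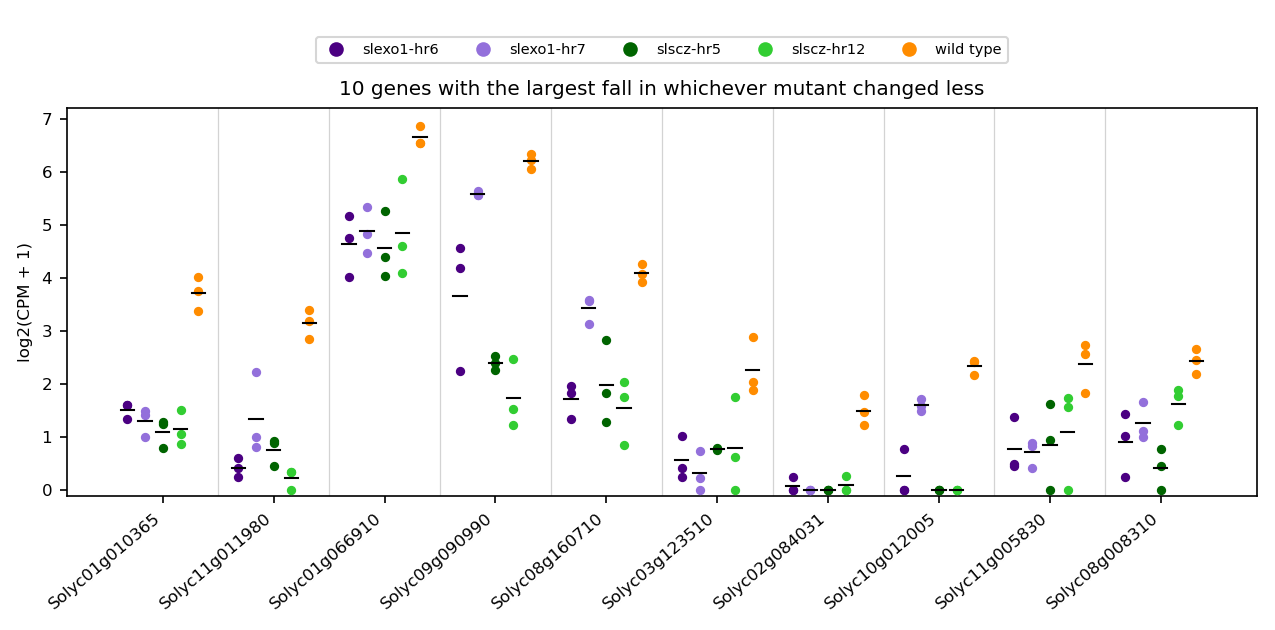
Points are single libraries of the 10 genes ranked by the smaller of their 2 falls, as log2(CPM + 1), with a bar at each group mean. Within each gene the groups run *slexo1-hr6*, *slexo1-hr7*, *slscz-hr5*, *slscz-hr12* and wild type. The 3 wild-type points lie above every mutant point, and Solyc09g090990, Solyc08g160710 and Solyc10g012005 lie higher in *slexo1-hr7* than in *slexo1-hr6*.

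The most abundant members rested on the most counts. Solyc09g010800 had 6865 to 9766 (median 8442) CPM in *slexo1* and 5462 to 10701 (median 8661) in *slscz*, against 19495, 19894 and 19718 CPM in wild type. Its mean was 43.1% of wild type in *slexo1* and 42.1% in *slscz*, and the direct difference of *slscz* from *slexo1* was 0.04 log2 units (95% interval -0.19 to 0.28, adjusted p = 0.828, limma). Solyc02g080200 had 1038 to 1298 (median 1141) CPM in *slexo1* and 1135 to 2214 (median 1595) in *slscz*, against 3407, 2527 and 2545 CPM in wild type. Solyc05g007470 had 1039 to 1314 (median 1194) CPM in *slexo1* and 685 to 961 (median 775) in *slscz*, against 1866, 1468 and 1817 CPM in wild type. These 2 genes ordered the mutants oppositely, as Solyc02g080200 was the lower one in *slexo1* and Solyc05g007470 in *slscz*.

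Solyc07g008240 had 674 to 929 (median 740.1) CPM in *slexo1* and 491 to 722 (median 561) in *slscz*, against 1225, 1340.2 and 1291 CPM in wild type. Solyc01g109390 had 264 to 341 (median 309) CPM in *slexo1* and 491 to 965 (median 550.4) in *slscz*, against 1314, 1068 and 1157 CPM in wild type. Solyc08g067100 had 251 to 350.1 (median 307) CPM in *slexo1* and 226 to 403 (median 269.9) in *slscz*, against 650.4, 517 and 560.3 CPM in wild type. In these 3 genes the levels in both mutants ranged from 26.4% to 60.0% of wild type by mean. Solyc01g099160 had 324 to 447 (median 387) CPM in *slexo1* and 184 to 268 (median 227) in *slscz*, against 584, 563 and 576 CPM in wild type. Solyc09g007520 had 235 to 261 (median 247) CPM in *slexo1* and 173 to 241 (median 197) in *slscz*, against 338, 359 and 371 CPM in wild type. Both were lower in *slscz* than in *slexo1*, and only the first passed the 1.3-fold threshold there (log2 fold change -0.68, against -0.23 for Solyc09g007520).

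**Figure D4:**
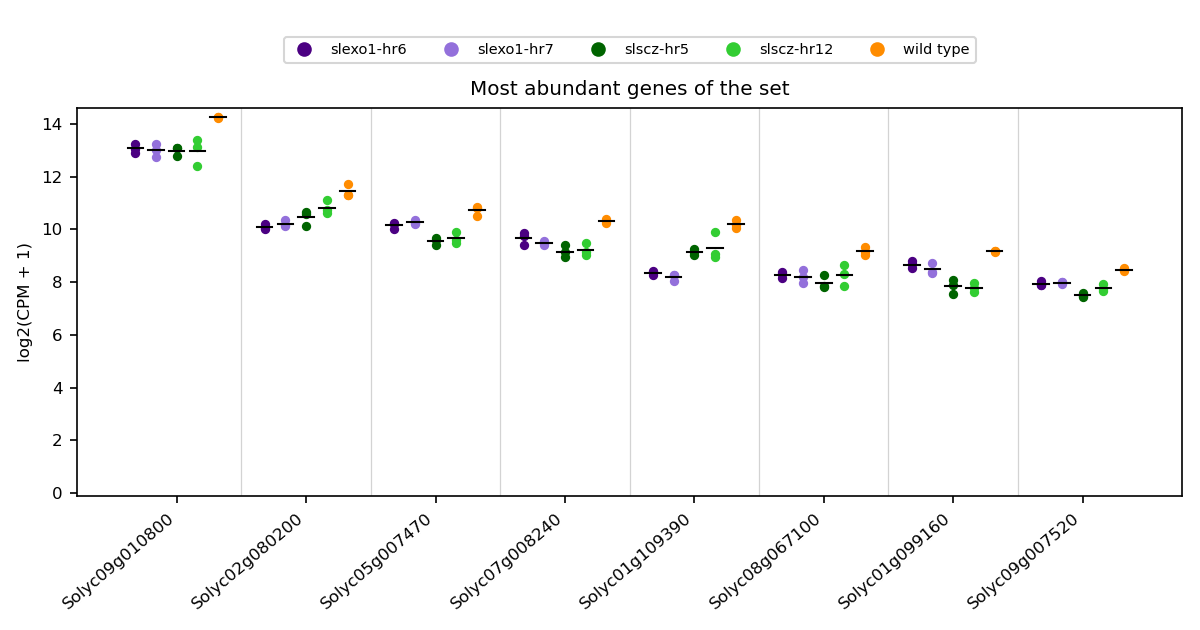
Points are single libraries of the 8 most abundant genes, as log2(CPM + 1), ordered by wild-type level, with a bar at each group mean. Groups run *slexo1-hr6*, *slexo1-hr7*, *slscz-hr5*, *slscz-hr12* and wild type within each gene. Solyc09g010800 has similar means in both mutants, and Solyc01g109390 is higher in *slscz* than in *slexo1*.

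The threshold of 0.5 left close neighbours on both sides. Just inside were Solyc00g021640 and Solyc09g090300, whose smaller falls were 0.505 and 0.501 log2 units. Just outside were Solyc01g087450 and Solyc08g014175, at 0.498 and 0.493. A further 111 genes were below wild type in all 12 mutant libraries without reaching the mean threshold.

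The direct comparison of *slscz* with *slexo1* asked whether members fell equally in both mutants. Of the 80 tested members, 14 were called lower in *slscz* and 4 higher (22.5% in all, against 23.8% of all tested genes called in either direction, 12.8% lower and 11.0% higher, limma-voom with Benjamini-Hochberg adjustment). The share of members called was thus near that of all genes. The median difference was -0.09 log2 units over members and -0.003 over all tested genes, with 47 members lower and 33 higher in *slscz*. At an unadjusted p under 0.05 there were 24 of the 80 members, against 6481 of the 16189 tested genes, a smaller share. All *slscz* libraries lay below all *slexo1* libraries in 5 of the 80 tested members (6.25%, against 9.47% of all tested genes), and above them in 1 member, Solyc01g109390 (1.25%, against 5.51%).

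Of the 14 members called lower in *slscz*, the largest differences were in Solyc09g090990, Solyc09g005220 and Solyc05g009480. Solyc09g090990 was lower in *slscz* by 2.69 log2 units (log2 fold change -2.69, SE 0.80, adjusted p = 0.0131, limma), although its lowest *slexo1* library, at 3.74 CPM, overlapped the *slscz* range. The *slexo1* lines of this gene differed, as given with the line comparison, and the p measures the spread between libraries, not between lines. Solyc09g005220 had 0 to 1.36 (median 0.398) CPM in *slscz* and 0.766 to 2.28 (median 1.94) in *slexo1*, against 4.18, 2.68 and 2.45 CPM in wild type. It differed by -1.88 (SE 0.60, adjusted p = 0.0208, limma), and the ranges of the mutants overlapped. Its *slscz* libraries split by line, with 0, 1 and 0 counts in *slscz-hr5* and 4, 5 and 3 counts in *slscz-hr12*. The fitted difference of *slscz-hr5* from *slscz-hr12* was -2.67 and was not called (adjusted p = 0.749, limma). The *slscz-hr12* values of 1.07 and 1.36 CPM lay within the *slexo1* range. The lowest *slscz* values thus came from a single line with 0 or 1 counts per library. Solyc05g009480 had 0.179 to 0.815 (median 0.483) CPM in *slscz* and 1.15 to 2.55 (median 2.17) in *slexo1*, against 4.18, 4.36 and 5.12 CPM in wild type. Its mutant ranges were separate, and the difference was -1.87 (SE 0.41, adjusted p = 0.00152, limma).

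Solyc05g049990 had 4.40 to 11.1 (median 6.35) CPM in *slscz* and 12.0 to 22.2 (median 14.4) in *slexo1*, against 54.3, 27.2 and 30.9 CPM in wild type. The mutant ranges did not overlap, and the difference was -0.98 (SE 0.24, adjusted p = 0.00381, limma). Solyc01g099160 and Solyc05g007470, both abundant, also had separate ranges, with differences of -0.68 (adjusted p = 1.33e-05) and -0.51 (adjusted p = 3.42e-05). Solyc09g090300, just inside the threshold in *slexo1*, differed by -0.48. The remaining 7 genes called lower are named because they were called, after their values were seen: Solyc11g013110 (-0.96), Solyc01g067860 (-0.91), Solyc03g115020 (-0.74), Solyc04g071890 (-0.72), Solyc11g018772 (-0.71), Solyc08g081980 (-0.48) and Solyc09g075420 (-0.39), each as a log2 fold change of *slscz* against *slexo1*. Of these 7, only Solyc11g013110 had mutant ranges that did not overlap.

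The 4 genes called higher in *slscz* had fallen further in *slexo1*. Solyc09g090080 had 0.534 to 1.97 (median 1.60) CPM in *slscz* and 0 to 1.03 (median 0.169) in *slexo1*, against 3.58, 2.80 and 2.67 CPM in wild type. The mutant ranges overlapped at these low levels, and the difference was 2.37 (SE 0.54, adjusted p = 0.0019, limma). Solyc01g109390, at 491 CPM or more in *slscz* and 341 CPM or less in *slexo1*, differed by 1.03 (SE 0.12, adjusted p = 2.23e-06, limma). Solyc12g096980 had 3.54 to 6.79 (median 5.72) CPM in *slscz* and 2.53 to 4.89 (median 3.31) in *slexo1*, against 13.1, 7.16 and 7.57 CPM in wild type, with a difference of 0.67 (adjusted p = 0.0368, limma). Solyc02g080200 differed by 0.58 (SE 0.11, adjusted p = 0.000306, limma).

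**Figure D5:**
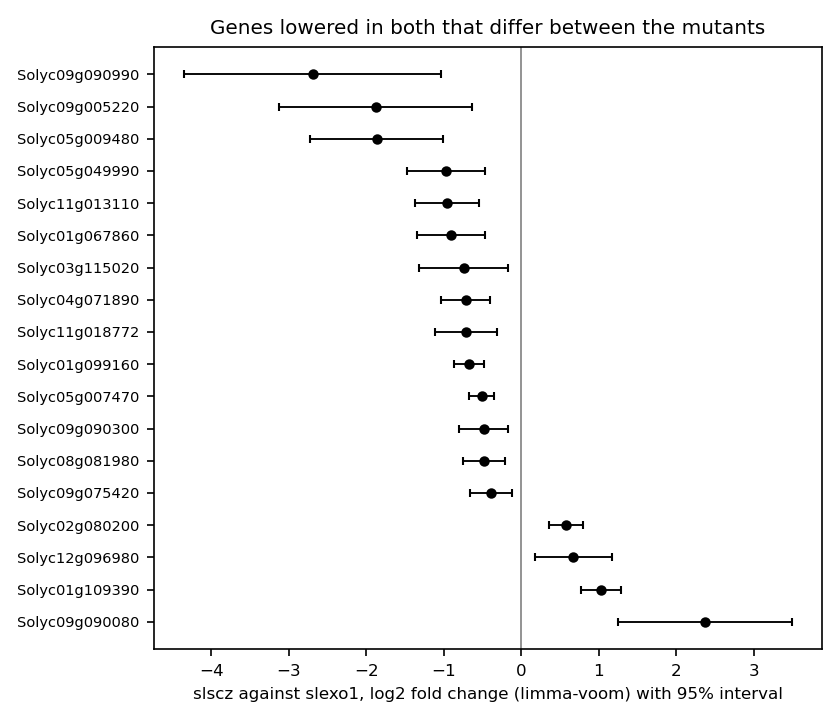
Points give the log2 fold change of *slscz* against *slexo1* for the 18 called genes, and bars their 95% intervals from limma-voom. The 14 genes to the left of 0 run from -2.69 to -0.39, and the 4 to the right from 0.58 to 2.37.

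Some of these calls were lost when 1 library was left out. In 15 fits that each left out 1 library, 12 of the 18 genes were called every time. Solyc03g115020 lost its call in 12 fits and was called only without *slscz-hr12* replicate 3, *slexo1-hr6* replicate 2 or *slexo1-hr7* replicate 4 (log2 fold change -0.90 to -0.56, highest adjusted p = 0.117 over all 15 fits). Solyc12g096980 lost it in 8 fits, without *slscz-hr5* replicates 2 or 4, *slscz-hr12* replicates 2 or 3, *slexo1-hr6* replicate 2 or any *slexo1-hr7* replicate (0.60 to 0.79, highest adjusted p = 0.0785). Solyc09g075420 lost it without *slexo1-hr7* replicate 2, *slscz-hr5* replicates 2 or 4 or *slscz-hr12* replicate 4 (-0.52 to -0.29). Solyc09g005220 lost it without *slscz-hr5* replicate 3 (-1.73) or 4 (-1.36), Solyc09g090300 without *slscz-hr5* replicate 4 (-0.38) and Solyc08g081980 without *slscz-hr12* replicate 2 (-0.35). Another tool, scaling or filter also ended 3 of these calls: Solyc09g075420 changed by less than 1.3-fold in edgeR (-0.36) and DESeq2 (-0.37), Solyc12g096980 had an adjusted p of 0.0690 (limma) with library size only and of 0.0566 (limma) without a filter, and Solyc03g115020 one of 0.0595 (limma) without a filter. Without the 4 mutant libraries numbered 4, Solyc09g005220 (-1.22, adjusted p = 0.197, limma), Solyc09g075420 (-0.22, adjusted p = 0.201, limma) and Solyc03g115020 (-0.85, adjusted p = 0.0795, limma) were not called. Solyc10g012005, which the main limma fit did not call (adjusted p = 0.0730), was called lower in *slscz* by edgeR (adjusted p = 0.00559) and DESeq2 (adjusted p = 0.00264). It was also called without a filter (-2.40, adjusted p = 0.0189, limma). The same held without *slexo1-hr6* replicate 2 (adjusted p = 0.0310, limma) or replicate 4 (adjusted p = 0.0164, limma).

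For the 62 tested members that were not called, the differences of *slscz* from *slexo1* ran from -2.31 to 1.25 log2 units. The 95% interval lay within 1 log2 unit either way in 48 of them and within 0.5 in 25. It reached beyond 1 log2 unit in 14. The median differences of members from wild type were themselves -0.84 in *slexo1* and -0.99 in *slscz*. An interval within 1 log2 unit therefore did not show equal falls, and neither did the lack of a call. Solyc07g008240 and Solyc09g007520 had adjusted p-values of 0.0191 and 0.0171 (limma) but changed by less than 1.3-fold.

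Lines of one genotype were compared to see how far members differed between alleles. Between *slexo1-hr6* and *slexo1-hr7*, 3 of 80 tested members were called, all lower in *slexo1-hr6* (0.346% of all tested genes were called in either direction and 0.198% lower). In all, 52 members were lower in *slexo1-hr6* and 13 had an unadjusted p under 0.05 (16.2%, against 7.19% of all tested genes). Solyc09g090990 had 22.6, 17.3 and 3.74 CPM in *slexo1-hr6*, against 46.1, 49.0 and 46.1 CPM in *slexo1-hr7* (log2 fold change -2.15, SE 0.35, adjusted p = 0.00652, limma). The *slexo1-hr7* libraries were all above the *slexo1-hr6* libraries, and the *slscz* libraries were below every *slexo1* library except the one at 3.74 CPM. It was called in each of the 15 fits that left out 1 library, with a log2 fold change of -2.72 without *slexo1-hr6* replicate 2 and of -1.26 without *slexo1-hr6* replicate 4, the library at 3.74 CPM. The gene was called by edgeR (adjusted p = 0.0181) and not by DESeq2 (adjusted p = 0.136).

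Solyc08g160710 had 1.53, 2.57 and 2.89 CPM in *slexo1-hr6*, against 10.9, 11.0 and 7.72 CPM in *slexo1-hr7* (-2.07, SE 0.44, adjusted p = 0.0435, limma). Solyc10g012005 had 0, 2.78 and 0 counts in *slexo1-hr6*, against 7.91, 13.7 and 10.8 counts in *slexo1-hr7*. It was called (adjusted p = 0.0404, limma), with a fitted value that depends on the prior count because 2 of the 3 *slexo1-hr6* libraries had no counts. Both genes had separate ranges between the lines, but both calls were lost in some fits. Solyc08g160710 was also called by edgeR (adjusted p = 0.0236) and DESeq2 (adjusted p = 0.00056), and lost its call in 9 of the 15 fits that left out 1 library, namely without any wild-type or *slexo1-hr6* library, *slexo1-hr7* replicates 2 or 3 or *slscz-hr5* replicate 2 (-2.29 to -1.76, highest adjusted p = 0.355). Solyc10g012005 lost its call in 10, without any wild-type or *slexo1-hr7* library, *slexo1-hr6* replicates 2 or 4, *slscz-hr5* replicate 3 or *slscz-hr12* replicate 3 (highest adjusted p = 0.307), and neither edgeR (adjusted p = 0.178) nor DESeq2 (adjusted p = 0.160) called it.

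Between *slscz-hr5* and *slscz-hr12*, 0 of 80 tested members were called by limma (0.105% of all tested genes were). At an unadjusted p under 0.05 there were 11 members (13.8%, against 4.77% of all tested genes), edgeR's quasi-likelihood test and DESeq2 each called 0, and the smallest adjusted p was 0.569 (limma). The differences ran up to 2.79 log2 units in size, in the low-abundance gene Solyc08g008310, which had 0.367, 0 and 0.718 CPM in *slscz-hr5* against 1.33, 2.44 and 2.71 CPM in *slscz-hr12*. These ranges did not overlap, and the difference did not pass the adjustment (adjusted p = 0.635, limma).

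Members came from all 12 chromosomes by their identifiers, with 4 on sequence not assigned to a chromosome. Chromosome 8 held 11 of the 80 tested members (13.8%, against 7.26% of all tested genes) and chromosome 10 held 1 (1.25% against 6.26%). Only 1 pair of members lay within 3 places of each other in the table, Solyc05g049970 and Solyc05g049990. Solyc00g160370 and Solyc00g160570 had equal counts in all 15 libraries, so their reads cannot be assigned to one or the other. Counts that were not whole, which arise where reads are shared between genes, occurred in 17 of the 80 tested members (21.2%, against 13.9% of all tested genes). Among them were Solyc09g090990, Solyc10g012005, Solyc02g080200 and Solyc01g099160, whose values are uncertain to that extent.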

How the data were processed

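Hairy roots of 5 groups were profiled by QuantSeq 3′ sequencing. After trimming with Trimmomatic, the authors ran kallisto against ITAG4.1 transcripts (version 0.46.2 in the submitters' processing notes, while the study's methods name another version) and deposited estimated counts, not normalized, of 34688 genes in a single table. Mutant columns were matched to samples by line and number. The 3 wild-type columns carry other numbers than the wild-type labels and were used as a group, and their replicate numbers here are those of the columns. 0 columns were left without a sample or group.

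CPM was computed from column totals, and log2 values used a pseudocount of 1. Estimated counts were rounded to whole numbers for fitting. Genes were filtered by filterByExpr of edgeR 4.0.16 by genotype (minimum count 10, minimum total 15), scaled by TMM and fitted with voom in limma 3.58.1 (R 4.3.3) in 1 model of 3 genotypes and 1 of 5 lines, over all 15 libraries. P-values were adjusted by Benjamini-Hochberg over 16189 genes, and calls required an adjusted p no higher than 0.05 together with a 1.3-fold change or more. P-values measure the spread between libraries, and libraries of 1 line are not independent lines. The reads carry no molecular identifiers. The procedure was tested on simulated data.

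Named genes were the 10 with the largest fall in whichever mutant changed less, the 8 most abundant in wild type, the 4 with the largest called difference between the mutants in each direction, the 2 with the largest called difference between lines, and the 2 on each side of the threshold. The members, lists and rule were chosen with earlier results of these data known. Alternatives included DESeq2 1.42.0, the quasi-likelihood test of edgeR, scaling by DESeq2 size factors or by library size, other filters and thresholds, a replicate block and leaving out each library. A random line effect and a fit without the mutant libraries numbered 4 were chosen after seeing the data. The random line effect had a within-line correlation of -0.054, a single value over all tested genes. Annotation keywords and promoter motifs were not analysed here, because the identifiers matched no annotation.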

Additional observations from a re-analysis of the deposited data

Results flagged for a closer look

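In 5 of 63 groups of 6 libraries, 1 library of a named gene stood apart from the others by Dixon's test. For normally distributed values the test marks about 1 in 20 groups by chance. CPM near 0 are not distributed in that way, so the 5 groups are not compared with that rate. Solyc11g011980 reached 3.69 CPM in *slexo1-hr7* replicate 4, against 0.997 CPM in the next *slexo1* library. Solyc03g123510 reached 2.40 CPM in *slscz-hr12* replicate 2, against 0.734 CPM in the next *slscz* library. Solyc02g084031 had 1 count in a single library of each mutant, at 0.191 CPM in *slexo1-hr6* replicate 2 and 0.208 CPM in *slscz-hr12* replicate 4, and 0 in the other mutant libraries. With all other values of a group at 0, the test marks the group whatever the count. Solyc01g109390 reached 965 CPM in *slscz-hr12* replicate 2, against 609 CPM in the next *slscz* library, and without that library its difference of *slscz* from *slexo1* was 0.90 log2 units.

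The fall from wild type differed between the mutants in 18 members by the direct test (limma). A call required both the 1.3-fold change and an adjusted p of 0.05 or less. These were 22.5% of the 80 tested members, near the 23.8% of all tested genes called in either direction. The log2 fold changes of *slscz* against *slexo1* were -2.69 for Solyc09g090990, -1.88 for Solyc09g005220, -1.87 for Solyc05g009480, -0.98 for Solyc05g049990, -0.96 for Solyc11g013110 and -0.91 for Solyc01g067860. Smaller negative differences were -0.74 for Solyc03g115020, -0.72 for Solyc04g071890, -0.71 for Solyc11g018772, -0.68 for Solyc01g099160, -0.51 for Solyc05g007470, -0.48 for Solyc09g090300, -0.48 for Solyc08g081980 and -0.39 for Solyc09g075420. Positive differences were 2.37 for Solyc09g090080, 1.03 for Solyc01g109390, 0.67 for Solyc12g096980 and 0.58 for Solyc02g080200.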

How the results depend on the processing

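The number of members depended on the scale and the threshold. DESeq2 size factors gave 139 lowered genes (all 88 among them), a mean threshold of 1 gave 22, and separation without a mean threshold gave 199. Thinning all libraries to the smallest gave 96 genes, with 60 of the 88 members among them. Leaving out 1 library gave 88 to 194 members, the highest without wild-type replicate 3, and 123 genes (82 of the 88) without the 4 mutant libraries numbered 4. A log2 threshold of 1.3 in place of 1.3-fold left 3 members below and 1 above in the direct comparison of *slscz* with *slexo1*, and 25 and 29 called lower than wild type in *slexo1* and *slscz*. Leaving out 1 library gave 10 to 17 members called lower and 3 to 5 higher in the direct comparison, 1 to 4 between *slexo1-hr6* and *slexo1-hr7*, 0 between the *slscz* lines, and 59 (without wild-type replicate 3) to 79 in *slexo1* and 70 to 78 in *slscz* against wild type. Fitting only the 12 mutant libraries left 1 member called between *slexo1-hr6* and *slexo1-hr7*. With the replicate block among the mutant libraries, the direct comparison called 13 members as lower and 4 as higher, with 2 between the *slexo1* lines and 0 between the *slscz* lines. Under that block Solyc03g115020 (adjusted p = 0.0503, limma) and Solyc09g075420 (-0.38, under 1.3-fold) were not called between the mutants, nor Solyc08g160710 (adjusted p = 0.0788, limma) and Solyc10g012005 (adjusted p = 0.0856, limma) between the *slexo1* lines. Shares over all tested genes were not computed for the alternative fits, so the counts of members called there are a description only. Same-numbered mutant libraries correlated at -0.06 to 0.42. Pairing required all same-numbered pairs to exceed 0.1, and only number 4 did so in all 6 pairs (0.119 to 0.415). The main fits therefore held no term for the number, and whether the libraries numbered 4 shared an effect was not tested. The sign of *slscz* against *slexo1* reversed for 4 genes that were not called: Solyc08g008310 (0.0652 by edgeR, 0.0908 by DESeq2), Solyc01g066910 (-0.0343), Solyc09g010800 (-0.0411) and Solyc00g021640 (-0.0360) by library size only, and Solyc09g010800 again (-0.0580) without the libraries numbered 4. With 1 library left out it also reversed within ranges of -0.17 to 0.21 for Solyc01g066910, -0.33 to 0.84 for Solyc11g005830, -0.87 to 0.40 for Solyc08g008310, -0.0300 to 0.15 for Solyc09g010800, -0.14 to 0.0256 for Solyc08g067100 and -0.00017 to 0.0729 for Solyc00g021640. The cause was not tested. Leaving aside the fits without 1 library, the values of named genes kept their sign and their side of the threshold in 358 cases, kept their side with the other sign in 6, lost a call in 32 and gained one in 6. The lost calls include those under the log2 threshold of 1.3, and the gained ones those without a fold threshold. Both settings put another cut on the main fit, so those changes followed from the main values alone. Levels of a few CPM rest on few counts per library.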
